A study of Malus domestica with 6 samples.

Results

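In the pulp of ripe Jonagold apples, 304 genes separated 1 library, Jonagold-1, from Jonagold-2 and Jonagold-3. Of these, 157 genes were higher in Jonagold-1 and 147 genes were lower. They were chosen by their expression values, given as FPKM. By definition this is a count of sequenced fragments scaled for transcript length and for the number of mapped reads in the library. The deposited values departed from this definition between the cultivars, as given below. A gene was taken when its highest Jonagold value was at least 10 FPKM and its value in Jonagold-1 was either at least 2 times, or at most 0.5 times, the values of both other Jonagold libraries. The 304 genes made up 3.17% of the 9600 genes that reached 10 FPKM in a Jonagold library, out of 46558 genes listed. Differences between Jonagold-1 and the other Jonagold libraries are therefore a description of how the genes were chosen and were not tested.

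The study compared the cultivars Granny Smith, with green skin, and Jonagold, with red skin, with 3 libraries for each. All fruits were unbagged (grown without a paper bag), were picked fully ripe from trees on M26 rootstock at 1 station, and were freed of peel. Each library was made from the pooled pulp of several fruits, so differences between single fruits within a library could not be seen. The labels and methods name no tree, picking day or extraction batch for a library, so these cannot be told apart from the library itself. Apple is a climacteric fruit, in which a rise in ethylene accompanies ripening, and many transcripts of softening, colour and aroma change steeply over this period. The genes carry identifiers of the GDDH13 apple genome, whose digits after MD give the chromosome. The table of names at hand held 0 of these identifiers, so roles are given only for genes that the study named, and the label pulp could not be checked against marker genes.

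Jonagold-1 was the library that differed most from its cultivar by this rule. The same rule found 44 genes for Jonagold-2 (24 higher, 20 lower) and 16 genes for Jonagold-3 (1 higher, 15 lower). Within Granny Smith, where 9482 genes reached 10 FPKM, it found 96 genes for Granny Smith-1, 73 genes for Granny Smith-2 and 23 genes for Granny Smith-3. Reads recovered from the FPKM values summed to 14767330 in Jonagold-1, which lay between Jonagold-3 with 14193282 and Jonagold-2 with 16353408. The Granny Smith libraries held between 17081863 and 17259098 reads. For a given gene, 1 read was worth 1.445 times as much FPKM in Jonagold-1 as in Granny Smith-1, more than these totals give. FPKM sums ran from 755644 to 800812 in Jonagold and from 554856 to 599617 in Granny Smith. How the values were scaled between the cultivars is not stated, and comparisons of the cultivars rest on that scaling. The median level of the 9600 genes was close, at 22.1 FPKM in Jonagold-1, 21.6 FPKM in Jonagold-2 and 21.3 FPKM in Jonagold-3. Scaling before deposit can by itself make such medians close, so nothing about Jonagold-1 is read from them.

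**Figure D1:**
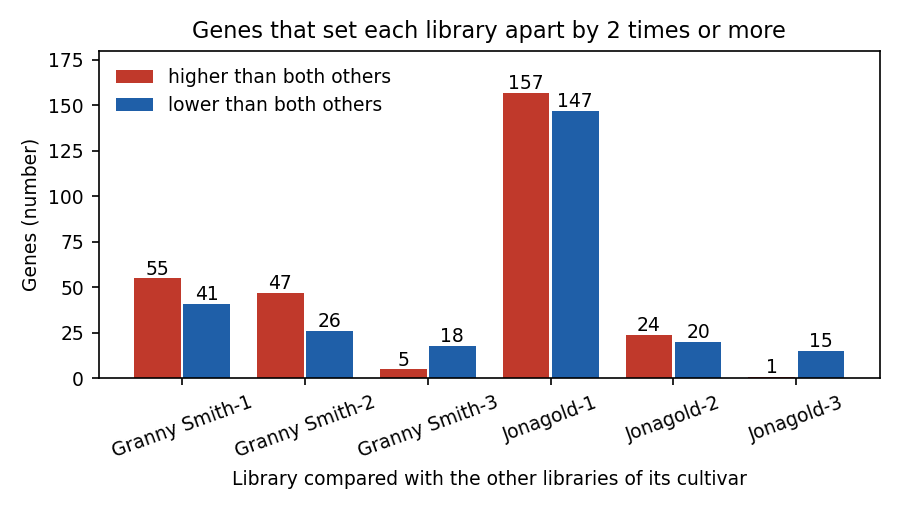
Number of genes (y axis) that were at least 2 times higher (red bars) or at most 0.5 times as high (blue bars) in 1 library than in both other libraries of the same cultivar (x axis, 6 libraries). Jonagold-1 has 157 higher and 147 lower genes, against 55 and 41 for Granny Smith-1, the next library.

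The genes higher in Jonagold-1 had a median of 29.4 FPKM there, against 9.50 FPKM in Jonagold-2 and 8.77 FPKM in Jonagold-3. The fold, taken against the nearer of the other Jonagold libraries, had a median of 2.66. It was at least 5 for 29 genes and below 3 for 95 genes. Most of these genes were of moderate level, since 31 genes reached 100 FPKM in a Jonagold library and 46 genes stayed below 20 FPKM. Jonagold-2 and Jonagold-3 lay within 1.5 times of each other for 122 of the 157 genes and at least 2 times apart for 14 genes. The recovered reads had a median of 592 per gene in Jonagold-1 (lowest 27), 185 in Jonagold-2 (lowest 2) and 160 in Jonagold-3 (lowest 6).

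The genes lower in Jonagold-1 had a median of 7.23 FPKM there, against 25.4 FPKM in Jonagold-2 and 20.2 FPKM in Jonagold-3. Their fold had a median of 2.57, and it was at least 5 for 20 genes and below 3 for 98 genes. A level of 100 FPKM was reached by 23 genes, and 56 genes stayed below 20 FPKM. Jonagold-2 was above Jonagold-3 for 100 of the 147 genes. The same held for 85 of the 157 higher genes and for 52.7% of all 9600 genes. The recovered reads had a median of 117 per gene in Jonagold-1, 435 in Jonagold-2 and 333 in Jonagold-3. In Jonagold-1, 5 of the 147 genes had 3 reads or fewer, so their folds rest on a handful of reads.

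**Figure D2:**
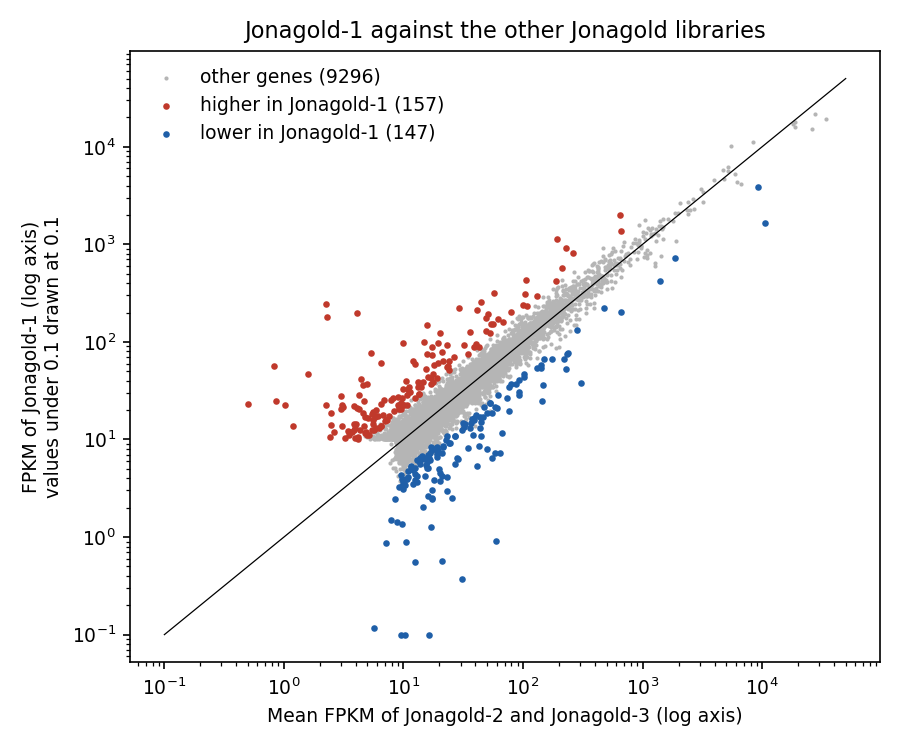
FPKM of Jonagold-1 (y axis, log scale) against the mean FPKM of Jonagold-2 and Jonagold-3 (x axis, log scale) for the 9600 genes of at least 10 FPKM in a Jonagold library, 1 point per gene. The 157 genes higher in Jonagold-1 (red) and the 147 genes lower in it (blue) lie away from the line of equal values over the whole range of levels, and the other genes (grey) lie around it.

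The rule cut through a continuous range of folds. Just inside it, MD03G1215100 (423, 211 and 164 FPKM in Jonagold-1, -2 and -3) had a fold of 2.0067, and MD08G1008400 had a fold of 2.0069. Just outside it, MD09G1244800 (15.3, 6.69 and 7.63 FPKM) had a fold of 1.9991 and MD03G1172800 a fold of 1.9824. Among lower genes, MD01G1226600 (23.5, 59.1 and 47.0 FPKM) was inside with a fold of 2.0013 and MD05G1215200 with 2.0053. MD13G1001600 and MD12G1032400 were outside, with folds of 1.9943 and 1.9924. Genes on either side of the threshold thus had nearly equal folds.

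The largest folds among the higher genes came from transcripts that were low in Jonagold-2 and Jonagold-3. MD16G1092600 stood at 244 FPKM in Jonagold-1, 1.33 FPKM in Jonagold-2 and 3.14 FPKM in Jonagold-3, a fold of 77.6. Its Granny Smith values were 3.14, 2.79 and 4.74 FPKM, so 5 of the 6 libraries were below 5 FPKM and Jonagold-1 alone was high. MD05G1118500 had the same form. It measured 182 FPKM in Jonagold-1, 0.855 and 3.70 FPKM in the other Jonagold libraries, and 1.39, 1.16 and 1.94 FPKM in Granny Smith. MD05G1247200 was at 200 FPKM in Jonagold-1 and at 2.03 and 6.11 FPKM in Jonagold-2 and -3, with Granny Smith at 14.3, 9.69 and 19.8 FPKM. Here the low libraries were Jonagold-2 and -3, and Granny Smith lay between them and Jonagold-1.

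A second form was a transcript present in Granny Smith and in Jonagold-1 and nearly absent from the other Jonagold libraries. MD08G1062400 had 33.2, 15.4 and 29.7 FPKM in Granny Smith, 56.1 FPKM in Jonagold-1, but 0.612 FPKM (4 reads) in Jonagold-2 and 1.04 FPKM (6 reads) in Jonagold-3. MD07G1240700 had 5.60, 6.32 and 10.7 FPKM in Granny Smith, 23.1 FPKM in Jonagold-1, 0.192 FPKM (4 reads) in Jonagold-2 and 0.817 FPKM (15 reads) in Jonagold-3. For both genes the Granny Smith libraries did not overlap Jonagold-2 and -3.

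The most abundant higher genes differed from each other in how Granny Smith compared. MD06G1096500 was the highest, with 2001 FPKM in Jonagold-1, 624 FPKM in Jonagold-2 and 675 FPKM in Jonagold-3, against 0.540, 4.65 and 0.254 FPKM in Granny Smith. MD15G1120000 showed 1122, 178 and 206 FPKM in Jonagold-1, -2 and -3 and 14.3, 12.5 and 7.52 FPKM in Granny Smith. MD16G1035500 showed 909, 250 and 206 FPKM in Jonagold and 28.0, 3.93 and 7.01 FPKM in Granny Smith. In these 3 genes every Jonagold library was far above every Granny Smith library, and Jonagold-1 was the most distant. MD04G1033500 had 1381, 670 and 657 FPKM in Jonagold and 470, 305 and 368 FPKM in Granny Smith, a smaller gap of the same order. MD08G1028100 went otherwise, with 807, 243 and 282 FPKM in Jonagold and 933, 676 and 827 FPKM in Granny Smith, so that Jonagold-1 fell inside the Granny Smith range and the other Jonagold libraries fell below it.

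The largest folds among the lower genes belonged to genes almost silent in Jonagold-1. MD13G1160500 had 0.911 FPKM (9 reads) in Jonagold-1, 86.7 FPKM in Jonagold-2 and 31.6 FPKM in Jonagold-3, a fold of 34.7. Granny Smith held 2.10, 2.14 and 2.84 FPKM. MD16G1161100 had 0.562 FPKM (6 reads), 32.0 FPKM and 10.1 FPKM in Jonagold-1, -2 and -3, and 3.63, 2.48 and 3.48 FPKM in Granny Smith. For both genes Jonagold-1 was below all Granny Smith libraries, and Jonagold-2 and -3 were above all of them. MD16G1160100 had 0 reads in Jonagold-1 and 160 and 74 reads in Jonagold-2 and -3 (21.5 and 11.3 FPKM), which is at least 24.9-fold lower, counting 3 reads as the floor of a library. MD13G1160800 had 3 reads in Jonagold-1 (0.370 FPKM), with 50.0 FPKM in Jonagold-2 and 11.5 FPKM in Jonagold-3. MD00G1148200, which is not placed on a chromosome, had 1.26 FPKM in Jonagold-1, 14.3 FPKM in Jonagold-2 and 330 reads, the most of the 6 libraries, in Jonagold-3. Granny Smith had 1.25, 2.34 and 1.13 FPKM, around the value of Jonagold-1.

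The most abundant lower genes included transcripts among the highest of the pulp. MD13G1161400 had 1658 FPKM in Jonagold-1, 11678 FPKM in Jonagold-2 and 9561 FPKM in Jonagold-3, a fold of 5.76. In Granny Smith it had 449, 1517 and 479 FPKM, all below Jonagold-1. MD03G1227300 had 3852, 9211 and 9218 FPKM in Jonagold and 12971, 16338 and 10986 FPKM in Granny Smith. MD03G1227500, with a nearby identifier, had 727, 1496 and 2260 FPKM in Jonagold and 2927, 4252 and 2770 FPKM in Granny Smith. For these 2 genes of chromosome 3, all Granny Smith libraries were above all Jonagold libraries and Jonagold-1 was the lowest of the 6. MD16G1158300 had 202, 692 and 616 FPKM in Jonagold and 102, 85.6 and 15.9 FPKM in Granny Smith, the reverse order of the cultivars.

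**Figure D3:**
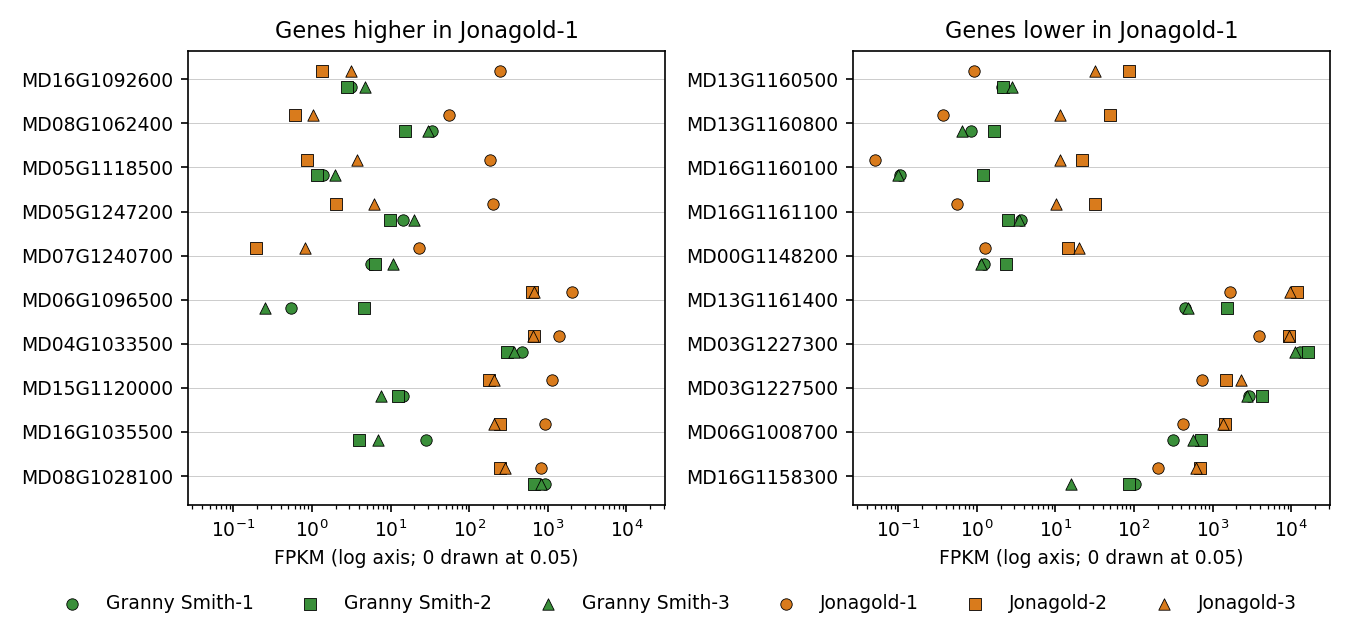
FPKM in each of the 6 libraries (x axis, log scale; a value of 0 is drawn at 0.05) of the 5 genes with the largest fold and the 5 genes with the highest Jonagold FPKM among the genes higher (left) and lower (right) in Jonagold-1. Orange symbols are Jonagold and green symbols are Granny Smith libraries, and circles, squares and triangles are replicates 1, 2 and 3. Jonagold-1 stands apart in every row, for example 244 FPKM against 1.33 and 3.14 FPKM for MD16G1092600.

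MdNAC1 (MD16G1069500) belonged to the set and lay outside the pathway lists. Of the 3 such transcription factor genes with both a name and an identifier at hand, it was the only member. NAC proteins are plant transcription factors, and some members of the family act in fruit ripening in apple and tomato. MdNAC1 had 7.90 FPKM in Jonagold-1, 21.0 FPKM in Jonagold-2 and 16.8 FPKM in Jonagold-3. Granny Smith had 4.41, 7.80 and 4.0 FPKM, so the cultivars did not overlap, but Jonagold-1 and Granny Smith-2 were nearly equal. The mean was 15.2 ± 6.68 FPKM in Jonagold and 5.40 ± 2.09 FPKM in Granny Smith (SD, n = 3). The log2 fold change between cultivars was 1.29 (SE 0.34, adjusted p = 0.014 in limma). Without Jonagold-1 it was 1.67 (adjusted p = 0.0013 in limma). The call was lost without Granny Smith-3 (adjusted p = 0.058 in limma), without Jonagold-3 (adjusted p = 0.054 in limma) and with equal library totals (log2 fold change 0.93). By qRT-PCR, a separate measure of transcript level, the study reported MdNAC1 higher in Jonagold.

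Aroma genes that the study listed by pathway were left out of the set, and 3 of those 94 genes met its values. MdLOX-11 (MD04G1204000), a lipoxygenase of the pathway that turns fatty acids into aldehydes, alcohols and esters, had 23.9, 8.11 and 10.2 FPKM in Jonagold-1, -2 and -3. MdAAT-9 (MD02G1175300), an alcohol acyltransferase of the family that joins alcohols to acyl groups to form esters, had 16.6, 6.70 and 7.25 FPKM. MdAAT-6 (MD13G1109000), of the same family, had 13.7, 35.3 and 43.2 FPKM. Jonagold-1 was thus the high library for 1 acyltransferase and the low library for the other. The study printed larger FPKM values for these 3 genes, by factors that differ between genes. The levels given here therefore cannot be set beside its lists.

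The Granny Smith values were not used by the rule, but their levels are not independent of it. The minimum of 10 FPKM was asked of Jonagold only, and the higher genes had their highest Jonagold value in Jonagold-1. This can by itself set Granny Smith levels and shares apart from those of all genes, so they are given as a description. The genes higher in Jonagold-1 had median levels of 6.45, 5.81 and 6.23 FPKM in Granny Smith-1, -2 and -3, and the genes lower in Jonagold-1 had 12.9, 15.2 and 11.5 FPKM. The median of the Granny Smith mean was 6.40 FPKM for higher genes, 13.7 FPKM for lower genes and 20.3 FPKM for all 9600 genes. The Granny Smith mean was below both Jonagold-1 and the mean of Jonagold-2 and -3 for 97 of the 157 higher genes (61.8%), between them for 34 genes (21.7%) and above both for 26 genes (16.6%). Of the 147 lower genes, the Granny Smith mean was above both for 43 (29.3%), between them for 54 (36.7%) and below both for 50 (34.0%). Over the 9600 genes it was below both for 51.2%, between them for 14.5% and above both for 34.3%. The rule widens the gap between Jonagold-1 and the others, which by itself raises the share between them.

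Some genes were nearly absent from Granny Smith. The minimum level was asked of Jonagold only, so the shares are given as a description. At most 3 reads in every Granny Smith library were found for 14 of the 157 higher genes (8.92%) and for 4 of the 147 lower genes (2.72%), against 0.740% of the 9600 genes. MD03G1228400 had 0 reads in all 3 Granny Smith libraries and 1379, 238 and 149 reads in Jonagold-1, -2 and -3 (221, 33.9 and 24.1 FPKM). MD00G1105100 had 2, 0 and 0 reads in Granny Smith and 319, 75.5 and 38.3 FPKM in Jonagold. MD09G1263900 had 2, 2 and 0 reads in Granny Smith and 93.7, 34.1 and 29.5 FPKM in Jonagold. These 3 genes were thus detected in Jonagold throughout, with Jonagold-1 at the top. Among the lower genes, MD12G1232100 had 1, 1 and 0 reads in Granny Smith and 54.5, 125 and 159 FPKM in Jonagold. MD13G1027400 had 1, 0 and 0 reads in Granny Smith and 8.07, 48.4 and 50.7 FPKM in Jonagold. MD10G1022900 was at the floor in Jonagold-1 as well, with 0, 236 and 28 reads in Jonagold-1, -2 and -3 and 0, 0 and 1 reads in Granny Smith.

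In a small number of genes Jonagold-1 lay within the Granny Smith range and both other Jonagold libraries lay outside it. There were 12 such genes among the 157 higher genes (7.64%) and 19 among the 147 lower genes (12.9%), against 6.83% of the 9600 genes. MD08G1061900 was one of the higher genes, with 222, 106 and 179 FPKM in Granny Smith, 211 FPKM in Jonagold-1, and 35.5 and 47.7 FPKM in Jonagold-2 and -3. Of the lower genes, MD12G1246700 had 62.4, 90.0 and 84.7 FPKM in Granny Smith, 75.0 FPKM in Jonagold-1, and 252 and 218 FPKM in Jonagold-2 and -3. For the higher genes the share was close to that of all genes. The rule put Jonagold-2 and -3 at least 2 times away from Jonagold-1, which by itself raises these shares. Nothing is therefore read from them. The lower genes counted here included MD10G1022900, with 0 reads in Jonagold-1.

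The genes also differed among the Granny Smith libraries, and for the lower genes Granny Smith-2 stood out. Among the 134 lower genes that reached 1 FPKM in Granny Smith, Granny Smith-2 was the highest of its cultivar for 93 genes (69.4%), against 33.7% of the 9420 genes that met both minimums. It was the lowest for 11 of them (8.21%), against 38.1%. Among the 130 higher genes that reached 1 FPKM in Granny Smith, the order was the opposite, with Granny Smith-2 the lowest for 67 genes (51.5%) and the highest for 27 genes (20.8%). With the libraries scaled to equal totals, the shares were 64.2% of the lower genes against 25.7% of all genes for the highest library, and 54.6% of the higher genes against 47.9% of all genes for the lowest, so the gap for the higher genes was narrower.

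For the lower genes, Granny Smith-1 and Granny Smith-3 were on the opposite side. Granny Smith-1 was the lowest for 64 of the 134 lower genes (47.8%, against 23.0% of all genes) and the highest for 26 (19.4%, against 47.4%). Granny Smith-3 was the lowest for 59 lower genes (44.0%, against 38.9%) and the highest for 15 (11.2%, against 18.9%). For the higher genes Granny Smith-1 was near the share of all genes, as the highest library for 66 of 130 (50.8%) and the lowest for 30 (23.1%). Granny Smith-3 was the highest for 37 of the 130 higher genes (28.5%, against 18.9%) and the lowest for 33 (25.4%, against 38.9%). The median log2 difference of Granny Smith-1 minus Granny Smith-2 was 0.21 for higher genes, -0.35 for lower genes and 0.06 for all genes. That of Granny Smith-3 minus Granny Smith-2 was 0.19, -0.39 and -0.03.

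**Figure D4:**
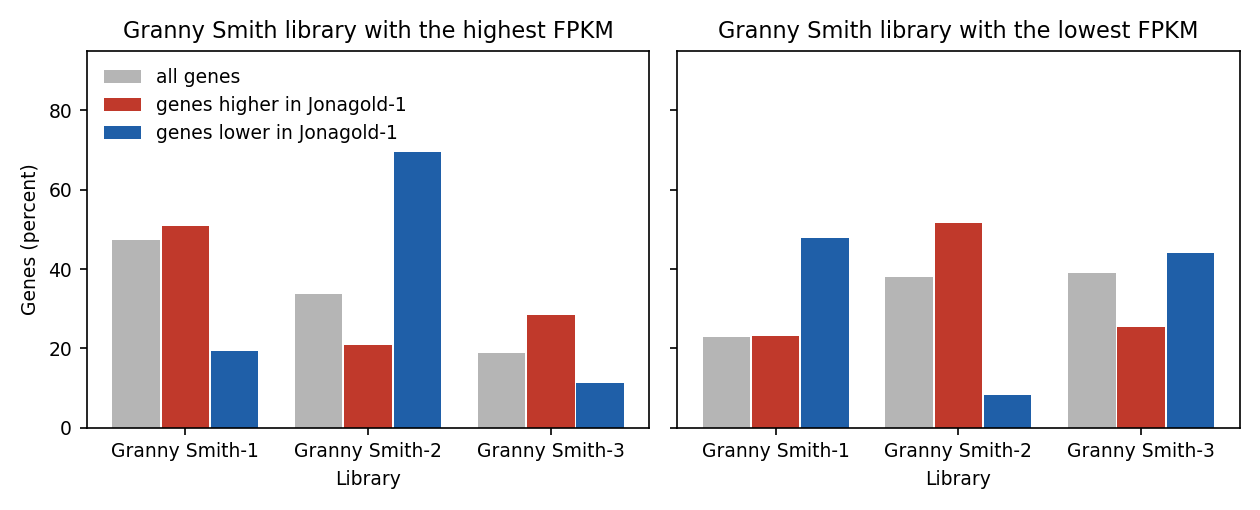
Percent of genes (y axis) for which each Granny Smith library (x axis) had the highest (left) or the lowest (right) FPKM of its cultivar, for the 9420 genes of at least 10 FPKM in Jonagold and 1 FPKM in Granny Smith (grey), the 130 genes higher in Jonagold-1 (red) and the 134 genes lower in Jonagold-1 (blue). Granny Smith-2 was the highest library for 69.4% of the lower genes and for 33.7% of all genes.

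The 2-times rule applied within Granny Smith gave fewer genes with the same order. Granny Smith-2 was set apart upwards for 17 of the 134 lower genes (12.7%, against 0.552% of the 9420 genes) and downwards for 0 of them. It was set apart downwards for 9 of the 130 higher genes (6.92%, against 0.541%) and upwards for 2 (1.54%, against 0.552%). MD13G1161400, with 1517 FPKM in Granny Smith-2 against 449 and 479 FPKM, was the most abundant of the 17. MD15G1077000 had 4.95, 22.9 and 2.46 FPKM in Granny Smith-1, -2 and -3 and 66.6, 285 and 159 FPKM in Jonagold. MD01G1062800 had 23.5, 88.0 and 37.5 FPKM in Granny Smith, against 77.0, 253 and 226 FPKM in Jonagold. In each of these 3 genes, Granny Smith-2, Jonagold-2 and Jonagold-3 were the high libraries of their cultivars. This order was the ground for taking them, and among such genes they were singled out for their level after the values were seen.

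The library with the same number, Granny Smith-1, was set apart in the same direction as Jonagold-1 for 11 of the 130 higher genes (8.46%, against 0.764% of the 9420 genes) and for 10 of the 134 lower genes (7.46%, against 0.552%). It went in the opposite direction for 6 higher genes (4.62%, against 0.552%) and 1 lower gene (0.746%, against 0.764%), so among the higher genes both directions were above the share of all genes. MD16G1035500, described above with 28.0 FPKM in Granny Smith-1 and 3.93 and 7.01 FPKM in the others, was the most abundant of the higher genes. MD03G1215100 had 35.3, 5.95 and 3.51 FPKM in Granny Smith, and MD02G1093500 had 37.8, 12.2 and 15.7 FPKM there, with 255, 42.5 and 46.3 FPKM in Jonagold. In both, replicate 1 was the high library of each cultivar. Of the lower genes, MD17G1209800 had 0.543, 2.03 and 1.44 FPKM in Granny Smith, against 26.9, 84.5 and 61.5 FPKM in Jonagold. MD11G1300000 rested on 0, 24 and 1 reads in Granny Smith, with 19.7, 64.2 and 87.5 FPKM in Jonagold. MD02G1005800 had 2.30, 5.02 and 5.91 FPKM in Granny Smith, against 5.33, 66.2 and 16.7 FPKM in Jonagold. Granny Smith-3 was set apart downwards for 7 lower genes (5.22%, against 0.361%) and upwards for 0. Among the higher genes it was set apart upwards for 5 (3.85%, against 0.138%) and downwards for 4 (3.08%, against 0.361%). The higher genes thus exceeded the share of all genes in both directions in every Granny Smith library. Whether the low Granny Smith level of the genes widens such gaps was not tested. Whether the replicate numbers mark a shared day or batch is not stated.

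The genes were spread over all chromosomes. They made up between 1.21% of the genes of at least 10 FPKM on chromosome 15 and 5.16% of those on chromosome 8, with 4.52% on both chromosome 13 and chromosome 16. Neighbouring identifiers were found for 24 of the 157 higher genes, in 10 runs of up to 3 genes, and for 16 of the 147 lower genes, in 8 runs of 2 genes. On chromosome 10, MD10G1002300 (234, 106 and 108 FPKM in Jonagold), MD10G1002400 (39.2, 16.5 and 12.7 FPKM) and MD10G1002500 (241, 88.6 and 110 FPKM) were all higher. In Granny Smith these 3 genes were highest in Granny Smith-1 and lowest in Granny Smith-2, as in 75.3, 25.5 and 49.9 FPKM for MD10G1002500. The run MD17G1064700 to MD17G1064900 had the same order in Granny Smith, as in 12.1, 0.733 and 2.50 FPKM for MD17G1064900, which had 92.3, 22.6 and 23.6 FPKM in Jonagold.

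The run MD09G1028700 to MD09G1028900 was higher in Jonagold-1 than in the other Jonagold libraries but lower than in Granny Smith. MD09G1028900 had 174, 48.4 and 49.0 FPKM in Jonagold and 338, 353 and 322 FPKM in Granny Smith. MD09G1028800 had 73.9, 19.0 and 15.5 FPKM in Jonagold and 149, 151 and 124 FPKM in Granny Smith. For both genes the Granny Smith libraries were close to each other and all were above Jonagold-1. A further run, MD13G1057300 to MD13G1057500, was high in Jonagold-1 and, within Granny Smith, in Granny Smith-3. MD13G1057400 had 96.5, 21.7 and 17.1 FPKM in Jonagold and 0.138, 0.331 and 5.67 FPKM in Granny Smith.

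Lower genes clustered in a stretch of chromosome 13 and a stretch of chromosome 16, singled out after the values were seen. Apple descends from an ancient doubling of its genome, and chromosomes 13 and 16 are known as a pair derived from it. From MD13G1160500 to MD13G1161400, 10 genes were listed, of which 4 were in the set, and 7 reached 1 FPKM in Jonagold. From MD16G1160000 to MD16G1161400, 15 genes were listed, of which 4 were in the set, and 9 reached 1 FPKM in Jonagold. Jonagold-1 was the lowest Jonagold library in the members by the rule, and also in all 3 other genes of this level on chromosome 13 and all 5 on chromosome 16. Over all 21769 genes of at least 1 FPKM in Jonagold, it was the lowest for 36.3%. The stretches were chosen after these values were seen, so the shares are a description and no test. The 3 other genes on chromosome 13 had 0, 4 and 1 reads in Jonagold-1 and 2, 5 and 15 reads in Jonagold-3. Their order thus rests on few reads. Of the 5 on chromosome 16, MD16G1161400 had 1 read in Jonagold-1, and the rest had between 550 and 180655 reads. MD16G1160000 had 1, 248 and 21 reads in Jonagold-1, -2 and -3 (0.0791, 17.5 and 1.68 FPKM), and MD13G1160600 had 1, 100 and 9 reads. In both, Jonagold-2 and Jonagold-3 were also far apart.

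The stretches held highly expressed genes as well. Beside MD13G1161400, MD16G1160700 was among the most abundant transcripts, with 15230, 28399 and 23415 FPKM in Jonagold and 2638, 4033 and 2662 FPKM in Granny Smith. It missed the set because Jonagold-1 was above 0.5 times the other libraries. Both genes had their highest Granny Smith value in Granny Smith-2. MD16G1160500 had 2697, 3050 and 3315 FPKM in Jonagold, so the difference was slight for some members of the stretch. Whether genes of the stretches share reads with each other or with copies elsewhere was not tested.

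**Figure D5:**
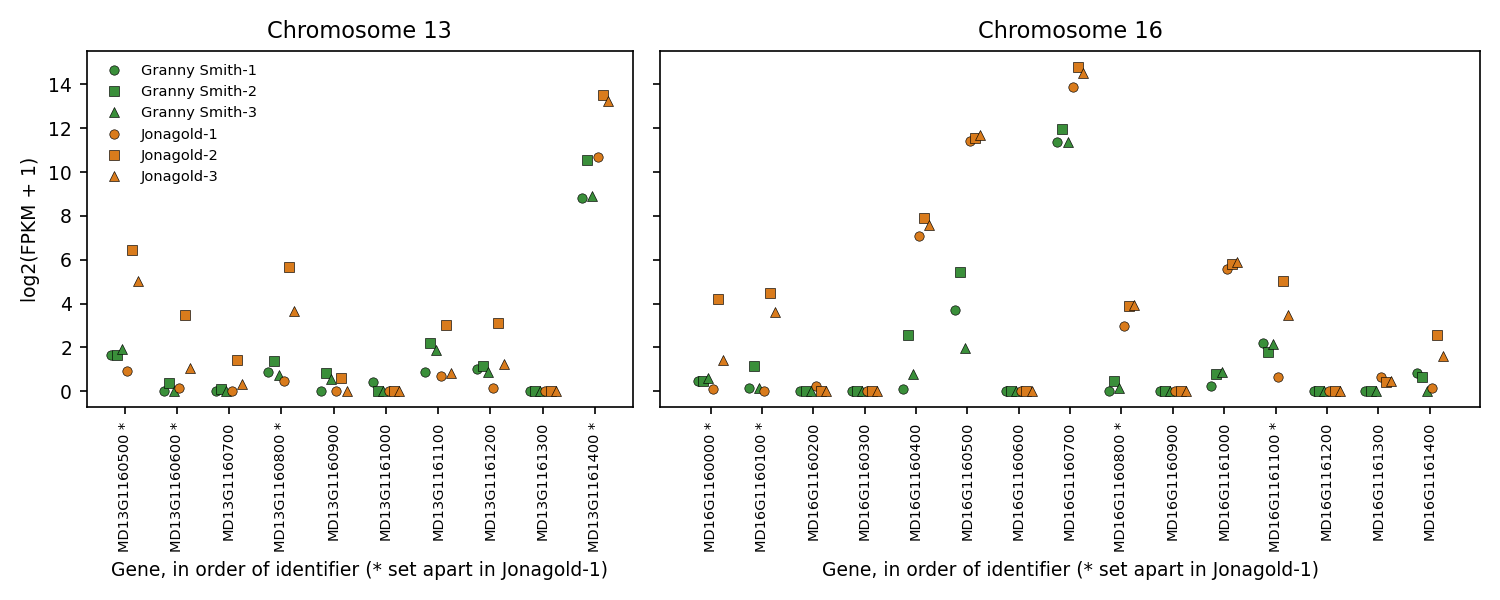
Expression as log2(FPKM + 1) (y axis) in the 6 libraries of the 10 genes of the stretch on chromosome 13 (left) and the 15 genes of the stretch on chromosome 16 (right), in order of identifier (x axis), with the 4 genes of the set on each marked by a star. Orange circles, Jonagold-1, lie below the other orange symbols in all 16 genes that reach 1 FPKM in Jonagold. In the starred genes this follows from the rule, and in some others it rests on a few reads.

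Only 1 pair of neighbouring identifiers differed in opposite directions. MD06G1008600 had 194, 43.7 and 57.8 FPKM in Jonagold and 166, 76.4 and 98.2 FPKM in Granny Smith. MD06G1008700 had 419, 1436 and 1365 FPKM in Jonagold and 313, 702 and 560 FPKM in Granny Smith. In both cultivars replicate 1 was the high library for the first gene and the low library for the second. Whether the counting used the strand of the reads is not stated, so reads of overlapping genes could not be told apart.

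The 304 genes entered the comparison of the cultivars, and the level of Jonagold-1 contributed to each result. DEGs were called by limma at an adjusted p below 0.05 and a log2 fold change of at least 1 in either direction, over 20993 genes. Of these, 12.0% were higher and 9.34% were lower in Jonagold, 21.3% in all. Of the 157 genes higher in Jonagold-1, 72 were DEGs higher in Jonagold (45.9%) and 22 were DEGs lower in Jonagold (14.0%), with a median log2 fold change of 1.06. Of the 147 genes lower in Jonagold-1, 44 were higher (29.9%) and 25 were lower (17.0%), with a median of 0.33. The median over all genes tested was 0.00. All Jonagold libraries were above all Granny Smith libraries for 77 higher and 40 lower genes (30.4% of all genes tested) and below for 19 and 31 genes (29.2%). Since the genes were chosen on the Jonagold values, nothing is read from these shares. With the libraries scaled to equal totals, the lower genes gave 39 DEGs higher and 37 lower in Jonagold.

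Without Jonagold-1 the medians of the 2 groups had to shift in opposite directions, since its values chose the genes, and the counts are given only as a description. The genes higher in Jonagold-1 then gave 61 DEGs higher (38.9%) and 38 DEGs lower in Jonagold (24.2%), and the median fell from 1.06 to 0.44. The genes lower in Jonagold-1 gave 68 DEGs higher (46.3%) and 19 lower (12.9%), and the median rose from 0.33 to 0.85. The shares over all genes then were 11.5% higher and 9.38% lower. Of the higher genes, 83 were called both with and without Jonagold-1, 11 only with it and 16 only without it. Of the lower genes, 63 were called both ways, 6 only with Jonagold-1 and 24 only without it. The sign of the fold change turned for 12 higher and 24 lower genes, and 0 genes were called in both fits with opposite signs.

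Genes with a large fold in Jonagold-1 had a wide Jonagold spread by the way they were chosen, and their cultivar values are given as a description. MD05G1247200, with a Jonagold mean of 69.5 ± 113 FPKM and a Granny Smith mean of 14.6 ± 5.08 FPKM (SD, n = 3), had a log2 fold change of 0.12 (SE 1.31, adjusted p = 0.95 in limma). Without Jonagold-1 it was -1.70 (adjusted p = 0.0092 in limma), and its sign also turned with a pseudocount of 0.1, with 2 of the scalings and without Granny Smith-2. MD08G1062400 changed from -2.17 (adjusted p = 0.16) to -3.83 (adjusted p = 6.5e-05) and MD13G1160500 from 2.40 (adjusted p = 0.12) to 4.0 (adjusted p = 1.2e-04) in limma. With all 6 libraries the Jonagold spread of MD13G1160500 was 43.5 FPKM (SD, n = 3) around a mean of 39.7 FPKM, wider than the mean itself.

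The genes with the most extreme cultivar differences were chosen from the fit that held Jonagold-1. MD06G1096500, in Granny Smith below 5 FPKM throughout, had a log2 fold change of 8.74 (SE 0.61, adjusted p = 1.4e-05 in limma) and 8.20 without Jonagold-1. MD14G1151300, with 313, 118 and 89.3 FPKM in Jonagold and 0.138, 0.888 and 0.0971 FPKM in Granny Smith, had a log2 fold change of 6.82. On the other side, MD17G1130000 had 11.8, 4.02 and 3.16 FPKM in Jonagold and 673, 976 and 840 FPKM in Granny Smith, a log2 fold change of -6.99 (SE 0.38). MD09G1127000 had 54.8, 21.2 and 25.0 FPKM in Jonagold and 695, 850 and 610 FPKM in Granny Smith, a log2 fold change of -4.49. In both genes Jonagold-1 was the Jonagold library nearest to Granny Smith.

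Among the lower genes, MD12G1232100 had a log2 fold change of 6.58, and MD17G1218600, with 37.2, 91.7 and 83.2 FPKM in Jonagold and 0.141, 0.439 and 0.133 FPKM in Granny Smith, had 5.76. The strongest in the other direction were MD10G1140700, with 3.66, 10.1 and 9.77 FPKM in Jonagold and 263, 267 and 294 FPKM in Granny Smith (log2 fold change -5.06), and MD10G1315100, with 16.6, 38.7 and 39.1 FPKM in Jonagold and 378, 421 and 397 FPKM in Granny Smith (-3.72).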

How the data were processed

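Pulp RNA from 3 Granny Smith and 3 Jonagold libraries was sequenced. The authors aligned filtered reads to the apple assembly GDDH13, used Cufflinks for quantification and deposited FPKM values, 1 column per library, of which all 6 were used. The labels' processing notes name Bowtie 0.12.2 and mouse builds instead. How reads on several genes or on either strand were counted is not given in the sources used here.

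The FPKM steps gave whole reads, within 0.02 of a read, for 34278 of the 34279 genes detected. For a given gene all libraries may be too low by 1 common factor. They served for depth and for the floor of 3 reads, which covers counting error only.

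Members and lists were chosen with earlier results of these data known. The 94 genes of the study's pathway lists were dropped. The test between cultivars was limma 3.58.1 under R 4.3.3 (lmFit, eBayes with trend) on log2(FPKM + 1), which understates changes of low genes, over genes whose mean reached 1 FPKM, with Benjamini-Hochberg adjustment over all of them. All members passed this minimum, since each had a high Jonagold library. Recovery and fit were tested on simulated data. The samples are pooled fruits of 1 station, and p-values measure the spread between such pools.

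Genes named were, per direction, the 5 with the largest fold, the 5 with the highest Jonagold FPKM, up to 3 each at the floor in Granny Smith, set apart in Granny Smith-1 in the same direction, or in the longest runs, the 2 largest and 2 smallest log2 fold changes, and the genes at the threshold. Genes named for Granny Smith-2, for the Granny Smith range, for the run on chromosome 13, for the opposite pair and in the stretches were added after the values were seen. Alternatives were other folds, minimums, scalings and pseudocounts, a replicate block, and leaving out each library.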

Additional observations from a re-analysis of the deposited data

How the results depend on the processing

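The number of genes higher in Jonagold-1 (157) was 396 at a fold of 1.5, 62 at a fold of 3 and 236 with a minimum of 5 FPKM. The number lower (147) was 339, 49 and 254, and 91 with a minimum of 20 FPKM. Scaling to equal totals gave 154 and 124 genes, and median-of-ratios scaling gave 156 and 146. The deposited values already had close medians (22.1, 21.6 and 21.3 FPKM in Jonagold-1, -2 and -3), so median-of-ratios scaling had little to change. It is therefore a weak check. Asking the fold against 1 other Jonagold library gave 203 to 217 higher and 163 to 203 lower genes, and leaving out Jonagold-1 gives no value. With Jonagold-2 and -3 within 1.5 times of each other, chosen after seeing the data, 122 and 116 genes were left.

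Of the genes set apart in Granny Smith-1 in the same direction, the 11 higher genes became 23 at a Granny Smith fold of 1.5 and 20 with no minimum, and the 10 lower genes became 24 at a fold of 1.5 and 4 with a minimum of 10 FPKM. The cause was not tested. Scalings added after seeing the data kept Granny Smith-2 the highest for 86 (equal totals) and 93 (median of ratios) of the 134 lower genes and the lowest for 71 and 67 of the 130 higher genes. Median-of-ratios scaling had little to change here too, since over all genes Granny Smith-2 was the highest for 33.8% with it and 33.7% without it. DEG counts ranged from 79 to 99 for higher genes (main 94) and from 56 to 87 for lower genes (main 69) when each library was left out in turn. With 2 libraries left in a cultivar, limma pools the spread with the other cultivar.

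With the replicate number as a block, 98 higher and 77 lower genes were DEGs. The number was not used to pair libraries in the main fit, since the study states no pairing. Deviations from the cultivar mean correlated at 0.164, 0.28 and -0.031 between same-numbered libraries over all genes tested. The value of 0.28 was the highest of all pairs, and 0.164 was the highest for Jonagold-1. A shared day or batch was not tested. Jonagold-3 correlated best with Granny Smith-2 (0.058), and Jonagold-1 correlated with Granny Smith-2 at -0.25. Of 156 alternative values for the log2 fold changes of named genes, 146 kept their direction and call. MD05G1247200 turned sign from 0.12 to -0.03 with a pseudocount of 0.1, -0.24 with equal totals and -0.01 with quantile normalization, and leaving out single libraries moved it to between -1.70 and 1.33. MD08G1062400 and MD13G1160500 became DEGs without Jonagold replicate 1. MdNAC1 was no longer a DEG with equal totals (0.93), without Granny Smith replicate 3 (1.14, adjusted p = 0.058 in limma) and without Jonagold replicate 3 (1.18, adjusted p = 0.054 in limma).

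Depth limits the genes with 3 reads or fewer in a library, whose folds are uncertain.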
